A study of Homo sapiens with 52 samples.

Results

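The genes described here are 43 members of the ATF4 amino acid and integrated stress response, taken by gene symbol from a list of ATF4 pathway regulators, amino acid synthesis enzymes, amino acid transporters and tRNA synthetases. All 43 symbols occurred once in the tumour line table of 62696 genes and once in the THP-1 table of 61209 genes. When amino acids run short, proteins misfold in the endoplasmic reticulum, haem is lacking or mitochondria are disturbed, one of a family of kinases phosphorylates the initiation factor eIF2. Most translation then slows, while the mRNA of the transcription factor ATF4 is translated more. ATF4 binds composite C/EBP-ATF elements and induces genes that make, import and charge amino acids, together with genes that end the response or lead towards cell death.

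The study measured poly(A) RNA in 52 libraries of human cell lines, to ask how inhibitors of Wnt/beta-catenin and midkine (MDK) signalling change hepatoblastoma cells and the macrophages that meet them. HepG2 and Huh6 are liver tumour lines of the hepatoblastoma type, and THP-1 cells come from a monocytic leukaemia and turn macrophage-like with the phorbol ester PMA. Tumour cells received inhibitor or vehicle for 48 h. PKF118-310, which blocks the binding of beta-catenin to TCF, was given at 0.2 and 0.3 µM to HepG2 and at 0.2, 0.3 and 0.4 µM to Huh6, and iMDK, an inhibitor of MDK, at 5 and 10 µM to both. THP-1 cells had 48 h of PMA and 48 h of rest. They were then cultured for 24 h with HepG2 or Huh6 cells that had received iMDK at 5 µM, at 10 µM or not at all for 24 h before, or were left alone, and co-cultured THP-1 cells were sorted before extraction. Each group had 3 libraries except HepG2 with PKF118-310 at 0.3 µM, which had 1. The labels do not say whether replicates were separate cultures, so p-values measure the spread between these libraries.

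Libraries held 18284605 to 20043105 gene counts in HepG2, 18172462 to 19912509 in Huh6 and 12623973 to 16940245 in THP-1. A limit of 3 counts per library came to 0.150 to 0.165 CPM (counts scaled to a common library total) in the tumour lines and 0.177 to 0.238 CPM in THP-1. All 18 markers of hepatoblastoma had reads in every HepG2 group, and in Huh6 DLK1 was at 0 in the PKF118-310 group at 0.3 µM. Of 14 macrophage markers, 13 had reads in each THP-1 group and CD68 was at 0 in every THP-1 library.

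Among the 43 members, 2 gave no values. ASNS, the asparagine synthetase (GRCh38 chr7:97852118-97872542, minus strand), and SLC1A4, a transporter of neutral amino acids (chr2:64988477-65023865, plus strand), were listed at 0 counts in all 52 libraries. ASNS lies wholly within a same-strand transcript of the GENCODE 29 annotation, ENSG00000284707, which had 3 to 127 counts in tumour libraries and 163 to 375 in THP-1 libraries. How reads in overlapping genes were assigned is not given in the sources used here. DDIT3, the stress factor CHOP, had 1 to 14 counts per tumour library and 5 to 25 per THP-1 library. GENCODE 29 also places a same-strand gene, itself at 0 counts, over part of DDIT3. CHAC1, an enzyme that degrades glutathione, had reads in Huh6 and THP-1 but stayed at or below 0.438 CPM in HepG2. The low-count filter left 39 members in HepG2, 41 in Huh6 and 40 in THP-1. PSPH is uncertain because its near-identical copy PSPHP1 reached 13.2% of its count.

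Promoters of 36 members were present in the RefSeq table (GRCh38.p14), each as 250 bases before and 50 after an annotated start. NUPR1, EIF4EBP1, PSPH, SHMT2, ALDH1L2, PYCR1 and YARS1 had no entry. The core of the composite C/EBP-ATF element, TGATGNAA, was searched on both strands. It occurred in 14 of the 36 members, against 4.46% of the 27305 genes in that table. By promoter, 24.6% of 57 member promoters and 3.62% of all 35116 promoters held it. In 7 members the whole match lay before the start, and those stretches are shown because they are the sequence that ATF4 dimers are known to recognise. They are written 5′ to 3′ on the gene's strand, and capitals mark TGATGNAA or its reverse complement. They lie at chr7:97872448-97872497 (minus strand) for ASNS, chr15:40953241-40953290 (plus) for CHAC1, chr19:33374050-33374099 (plus) for CEBPG, chr14:75427985-75428021 (plus) for JDP2, chr19:46784883-46784932 (minus) for SLC1A5, chr7:30594824-30594873 (plus) for GARS1 and chr16:70289665-70289714 (minus) for AARS1.
ASNS: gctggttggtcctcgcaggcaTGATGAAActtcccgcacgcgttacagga
CHAC1: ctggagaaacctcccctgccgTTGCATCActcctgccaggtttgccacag
CEBPG: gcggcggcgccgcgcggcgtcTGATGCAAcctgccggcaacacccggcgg
JDP2: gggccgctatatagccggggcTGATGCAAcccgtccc
SLC1A5: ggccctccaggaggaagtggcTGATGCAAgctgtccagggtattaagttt
GARS1: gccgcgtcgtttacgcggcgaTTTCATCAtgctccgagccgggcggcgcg
AARS1: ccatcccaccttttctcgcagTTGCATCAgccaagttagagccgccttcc

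CEBPG, JDP2 and SLC1A5 share the 8 letters TGATGCAA, and CHAC1 and AARS1 carry the same letters on the other strand. The other 7 matches, in SLC1A4, TARS1, CARS1, SLC3A2, MARS1, SLC7A1 and NARS1, touched or followed the start. A match describes letters and is not a measured binding site. In HepG2 with PKF118-310 at 0.2 µM the median log2 fold change was 0.71 over the 11 tested members with a match and 0.71 over the 21 tested members with an entry and no match. In Huh6 with iMDK at 10 µM those medians were 0.35 over 12 members and 0.21 over 22. In THP-1 with HepG2 they were -0.48 and -0.20, and with Huh6 -0.38 and -0.50, so the group with the match was the lower one in only one of the co-cultures. These differences were not tested.

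**Figure D1:**
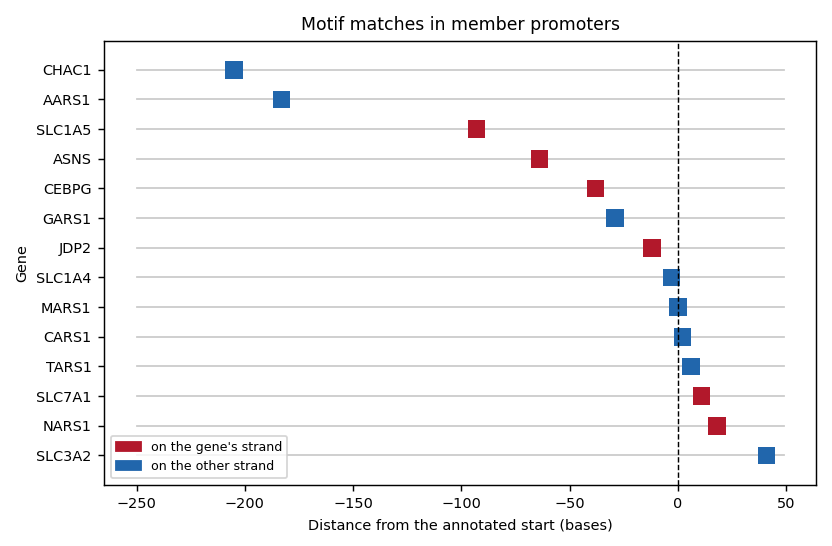
Position of TGATGNAA in the promoters of the 14 members that hold it. The horizontal axis is the distance in bases from the annotated start (dashed line), each grey line is the searched window, and bars are matches on the gene's strand (red) or the other strand (blue). Matches of MARS1 and CARS1 span the start, and those of CHAC1 and AARS1 lie 209 and 187 bases before it.

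In HepG2, PKF118-310 at 0.2 µM raised ATF4 itself, all 11 tRNA synthetase and tRNA export genes and 11 of 12 tested regulators, while 5 of 10 tested synthesis genes fell. Of 39 tested members, 30 rose and 6 fell (edgeR quasi-likelihood F test, Benjamini-Hochberg adjustment over 14111 genes, threshold 0.05). Among all genes tested, 35.9% rose and 36.1% fell. The median log2 fold change was 0.66 over the members and -0.01 over all genes tested. The ATF4 mRNA (chr22:39519695-39522685, plus strand) measured 593, 618 and 599 CPM in treated HepG2 and 372, 364 and 370 CPM in vehicle. It rose by 0.71 ± 0.03 on the log2 scale (SE; edgeR adjusted p = 4.44e-22).

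Among the regulators, the steepest change was that of PPP1R15A (chr19:48872392-48876057, plus strand), which encodes GADD34, the phosphatase subunit that reverses eIF2 phosphorylation. It measured 568, 580 and 558 CPM in HepG2 with PKF118-310 at 0.2 µM and 47.1, 47.7 and 48.4 CPM in vehicle. The groups lay far apart, and the log2 fold change was 3.57 ± 0.04, or 11.9-fold (edgeR adjusted p = 4.73e-40). SESN2, a leucine sensor that restrains mTORC1 (chr1:28259527-28282491, plus strand), had 282, 280 and 278 CPM in treated cells and 55.6, 57.7 and 53.5 CPM in vehicle, a 5.04-fold rise. TRIB3, a pseudokinase that dampens ATF4 activity (chr20:362835-397559, plus strand), had 624, 635 and 617 CPM in treated cells and 196, 201 and 197 CPM in vehicle. It rose 3.16-fold, and DDIT4, another mTORC1 inhibitor, rose 2.95-fold. CEBPB, CEBPG, JDP2, EIF4EBP1, VLDLR and STC2 rose by 0.36 to 0.91 on the log2 scale.

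Of the 10 tested synthesis genes of HepG2 3 rose and 5 fell under PKF118-310, where 35.9% and 36.1% of all genes did. ALDH18A1, which makes the proline precursor pyrroline-5-carboxylate (chr10:95605929-95656706, minus strand), had 137, 134 and 134 CPM at 0.2 µM and 454, 430 and 445 CPM in vehicle. It fell by 1.72 ± 0.03 on the log2 scale (edgeR adjusted p = 1.16e-32), and PYCR1, the next step to proline, fell by 0.40. The serine pathway genes PHGDH, PSAT1 and PSPH fell by 0.33, 0.28 and 0.67. CTH, which makes cysteine from cystathionine (chr1:70411218-70439851, plus strand), went the other way, with 29.6, 28.9 and 30.1 CPM in treated cells and 10.8, 11.9 and 11 CPM in vehicle. It rose 2.63-fold, and the mitochondrial folate enzymes MTHFD2 and SHMT2 rose by 0.50 and 0.24 on the log2 scale.

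Of 6 tested transporters in HepG2, 5 rose and 1 fell at 0.2 µM. SLC6A9, a glycine carrier, measured 32.1, 35.9 and 33.0 CPM in treated cells and 13.9, 15.9 and 12.5 CPM in vehicle and rose 2.39-fold. SLC3A2, the heavy chain that brings light chains such as SLC7A5 to the membrane, rose by 0.82 on the log2 scale. SLC7A5, the leucine and tryptophan carrier itself (chr16:87830023-87869488, minus strand), had 630, 649 and 612 CPM in treated cells and 784, 746 and 763 CPM in vehicle. It fell by 0.28 (edgeR adjusted p = 2.11e-10), with no overlap between the groups. Among the synthetases SARS1, which charges serine tRNA (chr1:109213918-109238169, plus strand), rose most, with 366, 379 and 378 CPM in treated cells and 148, 136 and 144 CPM in vehicle. The other 10 genes of that group rose by 0.33 to 1.25 on the log2 scale, with NARS1 at the low end and CARS1 at the high end. Over the same libraries the summed level of the 18 hepatoblastoma markers was 8894 to 9777 CPM in treated HepG2 and 37790 to 41230 CPM in vehicle. Its part in the members' changes was not tested.

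**Figure D2:**
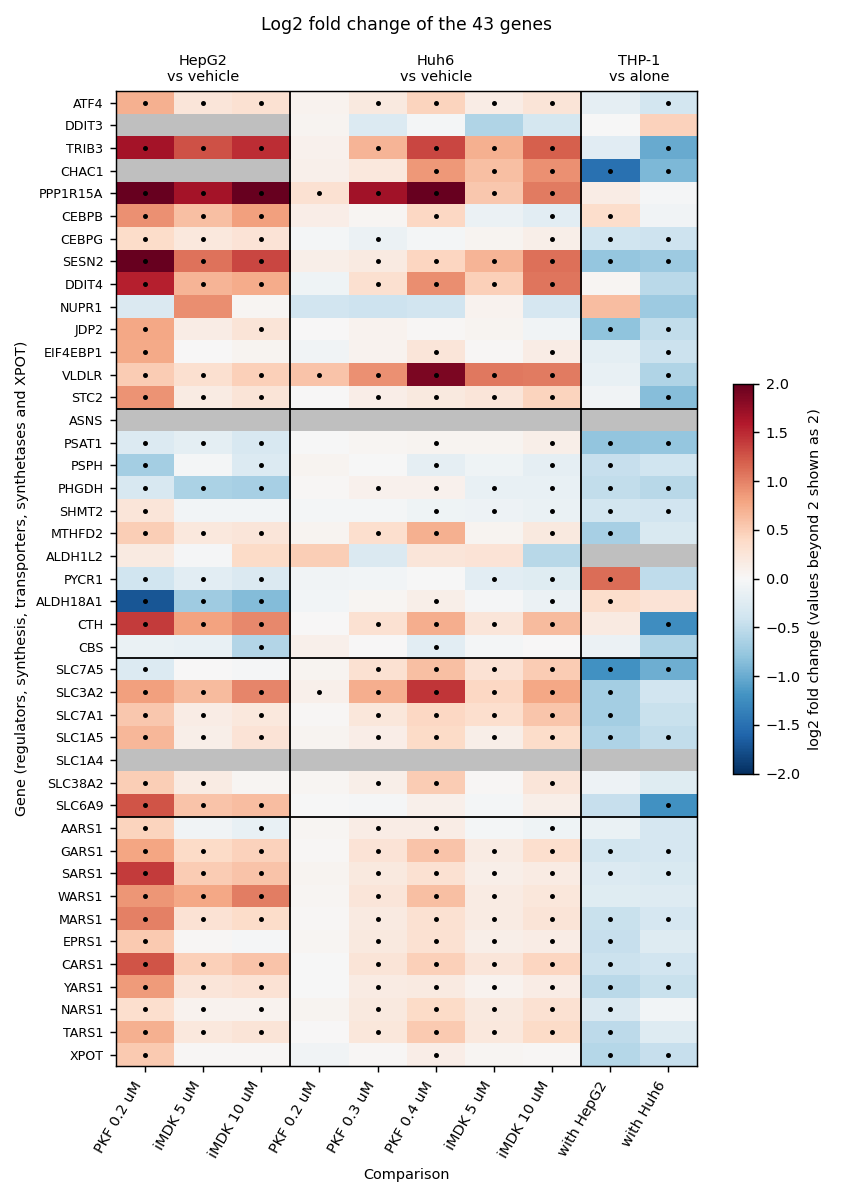
Log2 fold change of each of the 43 genes (rows, in 4 groups) in 10 comparisons (columns), from blue (lower in the treated or co-cultured group) to red (higher). Dots mark an edgeR adjusted p below 0.05 and grey cells were not tested. The rows of regulators and synthetases are mostly red in HepG2 and Huh6 and mostly blue in THP-1, PPP1R15A is red in all 8 tumour line columns, and ALDH18A1 is blue in the 3 HepG2 columns.

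The single HepG2 library with PKF118-310 at 0.3 µM has no replicate check and gave no test. Of the 40 members with a ratio, 33 lay above all 3 vehicle libraries, 4 below them and 3 between them. Over the 15105 genes with a ratio, 40.7% lay above and 42.5% below all vehicle libraries. The median log2 ratio to the vehicle mean was 0.73 over the members and -0.03 over these genes. PPP1R15A stood at 356 CPM there, below its 558 to 580 CPM at 0.2 µM and above its 47.1 to 48.4 CPM in vehicle. SLC7A5 stood at 1036 CPM, above both the 612 to 649 CPM at 0.2 µM and the 746 to 784 CPM of vehicle. PSAT1 likewise stood at 417 CPM, above 268 to 278 CPM at 0.2 µM and 320 to 339 CPM in vehicle. ALDH18A1 was low again, at 164 CPM.

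Huh6 responded to PKF118-310 in steps. At 0.2 µM, 3 of 41 tested members rose and none fell, where 1.04% of 15029 genes rose and 1.2% fell. They were PPP1R15A, SLC3A2 and VLDLR, a lipoprotein receptor, at log2 fold changes of 0.31, 0.11 and 0.57. VLDLR lost its call whichever library was left out, and SLC3A2 lost it without inhibitor replicate 1, inhibitor replicate 3 or vehicle replicate 3. At 0.3 µM 25 members rose and 1 fell, where 15% of all genes rose and 13.5% fell. The 1 that fell was CEBPG, a C/EBP partner of ATF4, by 0.12, and not without inhibitor replicate 1 or 3. At 0.4 µM 31 rose and 3 fell, where 28.9% rose and 27.9% fell. Without inhibitor replicate 1 the count that fell at 0.4 µM was 1. The median log2 fold change at 0.4 µM was 0.30 over the members and -0.01 over all genes tested. The direct comparison of 0.4 with 0.2 µM had 30 members higher and 2 lower, where 28.1% of all genes were higher and 26.5% lower.

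PPP1R15A followed these dose steps. It measured 118, 115 and 117 CPM at 0.2 µM, 298, 302 and 306 CPM at 0.3 µM and 588, 616 and 616 CPM at 0.4 µM, against 92.2, 99.5 and 91.0 CPM in vehicle. No group overlapped another, and the log2 fold change at 0.4 µM was 2.69 ± 0.03, or 6.44-fold (edgeR adjusted p = 3.04e-43). TRIB3 had 258, 271 and 272 CPM at 0.4 µM and 109, 105 and 104 CPM in vehicle, a 2.52-fold rise. VLDLR had 9.79, 8.72 and 8.18 CPM at 0.4 µM and 2.35, 2.35 and 2.52 CPM in vehicle, a 3.69-fold rise at a low level. CHAC1 had 24.8, 25.3 and 26.8 CPM at 0.4 µM and 12.4, 15.9 and 13.8 CPM in vehicle, a 1.83-fold rise. ATF4 rose by 0.44 on the log2 scale and SESN2 by 0.43.

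The transporters and synthetases of Huh6 rose together at 0.4 µM, with 5 of 6 and 11 of 11 tested genes higher. SLC3A2 (chr11:62856102-62888875, plus strand) measured 960, 997 and 1004 CPM at 0.4 µM and 370, 370 and 357 CPM in vehicle, a log2 fold change of 1.43. SLC7A5 had 685, 708 and 706 CPM at 0.4 µM and 463, 465 and 456 CPM in vehicle and rose 1.52-fold, whereas it fell in HepG2 at the lower dose of 0.2 µM. GARS1, which charges glycine tRNA, and WARS1, which charges tryptophan tRNA, rose by 0.58 and 0.60 on the log2 scale. Among the synthesis genes MTHFD2 and CTH rose 1.65-fold and 1.66-fold, PSAT1, PHGDH and ALDH18A1 rose by 0.05 to 0.11, and PSPH, SHMT2 and CBS fell by 0.18, 0.08 and 0.21. The call of PSAT1 was lost without any 1 of 4 libraries, that of CBS without any 1 of 5, and that of SHMT2 without inhibitor replicate 1. The summed hepatoblastoma markers were 8723 to 9753 CPM at 0.4 µM and 14290 to 14420 CPM in vehicle, and their part in these changes was not tested.

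**Figure D3:**
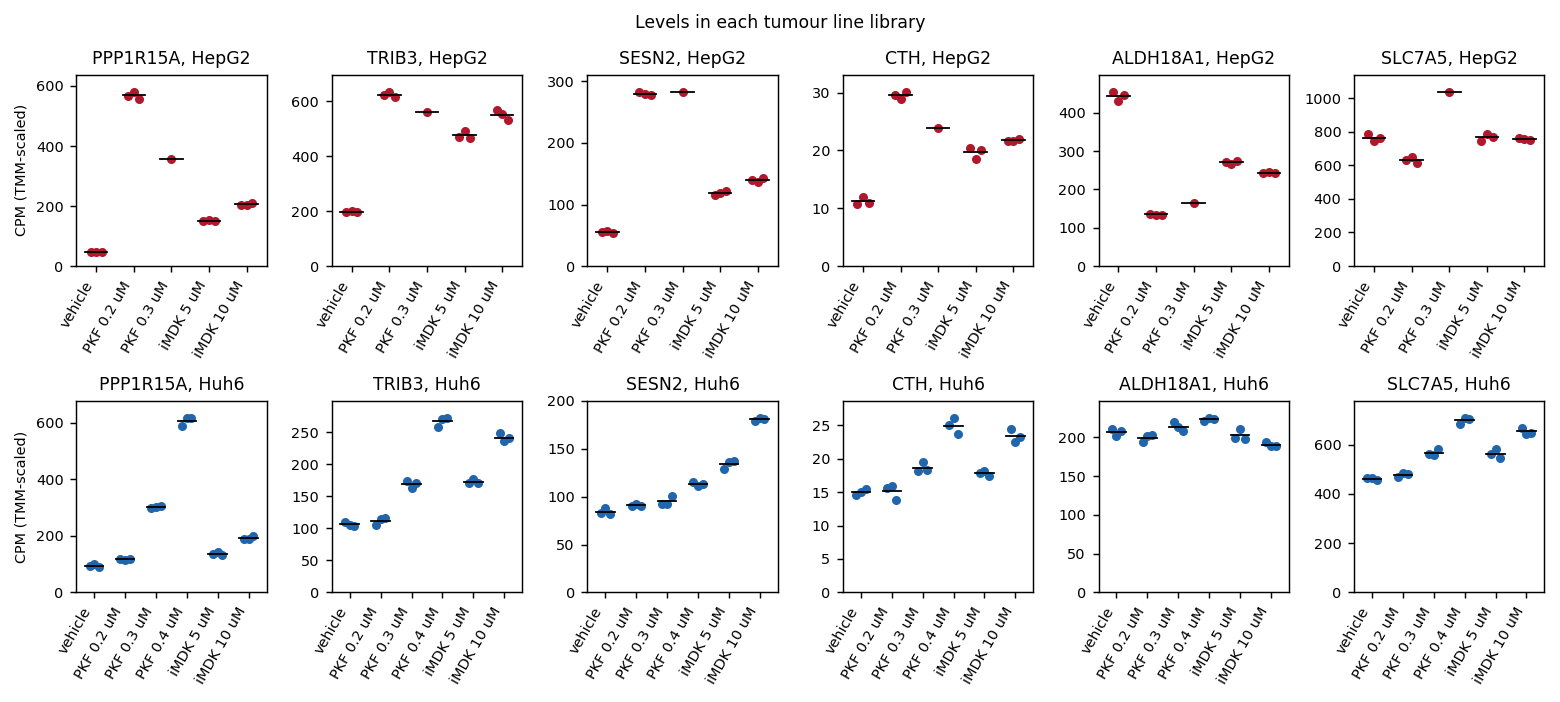
Level in each tumour line library of 6 members, in CPM scaled by TMM on axes that start at 0, with HepG2 above and Huh6 below. Points are libraries and bars are means, and HepG2 at PKF118-310 0.3 µM is 1 library. PPP1R15A steps up with PKF118-310 in Huh6 to 588 to 616 CPM, and ALDH18A1 is lower in every treated HepG2 group than in vehicle.

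iMDK also raised regulators, transporters and synthetases in HepG2. At 5 µM 24 of 39 tested members rose and 4 fell, where 25.6% of all genes rose and 26% fell. At 10 µM 24 rose and 7 fell, where 29.9% rose and 29% fell, and the median log2 fold change was 0.26 over the members and 0.02 over all genes tested. Between 10 and 5 µM 7 members were higher and 5 lower, where 7.58% of all genes were higher and 7.52% lower. PPP1R15A had 151, 153 and 149 CPM at 5 µM and 204, 205 and 210 CPM at 10 µM, against 47.1 to 48.4 CPM in vehicle. Its log2 fold change at 10 µM was 2.11 ± 0.04 (edgeR adjusted p = 1.24e-32). TRIB3 had 571, 555 and 531 CPM at 10 µM and 196, 201 and 197 CPM in vehicle, a 2.79-fold rise. SESN2 had 140, 137 and 143 CPM at 10 µM and 55.6, 57.7 and 53.5 CPM in vehicle, a 2.52-fold rise.

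Of the 11 synthetase and export genes of HepG2, 8 rose and 1, AARS1, fell at 10 µM iMDK. WARS1 (chr14:100333788-100376805, minus strand) measured 47.8, 49.9 and 49.8 CPM in treated cells and 25.3, 23.9 and 23.3 CPM in vehicle, a 2.03-fold rise that was the largest of the synthetases. SLC3A2 and CTH rose by 0.97 and 0.95 on the log2 scale, and ATF4 by 0.31. Of the 10 tested synthesis genes 2 rose, CTH and MTHFD2, and 6 fell. ALDH18A1 had 242, 246 and 243 CPM at 10 µM and 454, 430 and 445 CPM in vehicle and fell by 0.86. PHGDH, the first step of serine synthesis, had 106, 101 and 95.5 CPM at 10 µM and 156, 158 and 168 CPM in vehicle and fell by 0.67. PSAT1 fell by 0.32 and CBS, the enzyme before CTH, by 0.59. GRCh38 holds a near-identical copy of CBS, CBSL, so values of CBS are uncertain. The hepatoblastoma markers summed to 27410 to 27980 CPM at 10 µM and 37790 to 41230 CPM in vehicle, and their part was not tested.

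In Huh6, iMDK at 5 µM raised 22 of 41 tested members and lowered 3, where 17.3% of all genes rose and 18.3% fell. At 10 µM 27 rose and 7 fell, where 26% rose and 26.1% fell, and the median log2 fold change was 0.19 over the members and -0.00 over all genes tested. Between 10 and 5 µM 22 members were higher and 2 lower, where 12.7% of all genes were higher and 12.2% lower. The lower count was 1 without replicate 2 or 3 at 10 µM or replicate 2 at 5 µM. TRIB3 had 249, 236 and 241 CPM at 10 µM and 109, 105 and 104 CPM in vehicle, a 2.28-fold rise (edgeR adjusted p = 6.16e-30). SESN2 had 179, 182 and 181 CPM at 10 µM and 82.7, 88.0 and 81.4 CPM in vehicle, a 2.15-fold rise. DDIT4 and PPP1R15A rose 2.11-fold and 2.06-fold, CHAC1 1.89-fold and SLC3A2 1.72-fold. VLDLR was at 2.06-fold at 10 µM and 2.07-fold at 5 µM, and the direct comparison of the doses put it at -0.00 on the log2 scale.

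The members that fell in Huh6 at 10 µM iMDK did so by small amounts. PYCR1 had 62.6, 59.6 and 57.9 CPM in treated cells and 72.0, 70.3 and 70.0 CPM in vehicle and fell by 0.24 on the log2 scale. PHGDH fell by 0.15, PSPH by 0.17, SHMT2 by 0.14, ALDH18A1 by 0.12 and AARS1, which charges alanine tRNA, by 0.09. CEBPB, a C/EBP factor that can pair with ATF4, had 95.4, 90.0 and 96.3 CPM in treated cells and 103, 116 and 105 CPM in vehicle. It fell by 0.21 (edgeR adjusted p = 0.00605), and its call was lost without vehicle replicate 2 and with DESeq2. The hepatoblastoma markers summed to 9875 to 10200 CPM at 10 µM and 14290 to 14420 CPM in vehicle, and their part was not tested.

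HepG2 and Huh6 had separate vehicles, so their calls at one iMDK dose could be set side by side over the 39 members tested in both lines. At 10 µM 21 members rose in both, which is 87.5% of those that rose in HepG2 and 80.8% of those that rose in Huh6. Over the 12911 genes tested in both lines the genes that rose in both were 49.2% of those that rose in HepG2 and 51.7% of those that rose in Huh6. The 5 members that fell in both were AARS1, ALDH18A1, PHGDH, PSPH and PYCR1, or 71.4% of those that fell in each line, against 48.7% in HepG2 and 57.7% in Huh6 over all genes. CEBPB and PSAT1 were called in opposite directions, as were 9.14% of all genes. At 5 µM 19 members rose in both lines, 79.2% of those that rose in HepG2 and 90.5% in Huh6, against 35.4% and 48% over all genes. PHGDH and PYCR1 fell in both, and none were called in opposite directions, as 5.31% of all genes were. The shares depend on how many genes were called in each line. At 10 µM 24 of the 39 members rose in HepG2 and 26 in Huh6, against 3898 and 3708 of the 12911 genes. At 10 µM 7 members fell in each line, against 3936 and 3324 genes. At 5 µM 24 and 21 members rose, against 3322 and 2451 genes. Rises were thus more frequent among the members to begin with, and the shares were not tested.

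**Figure D4:**
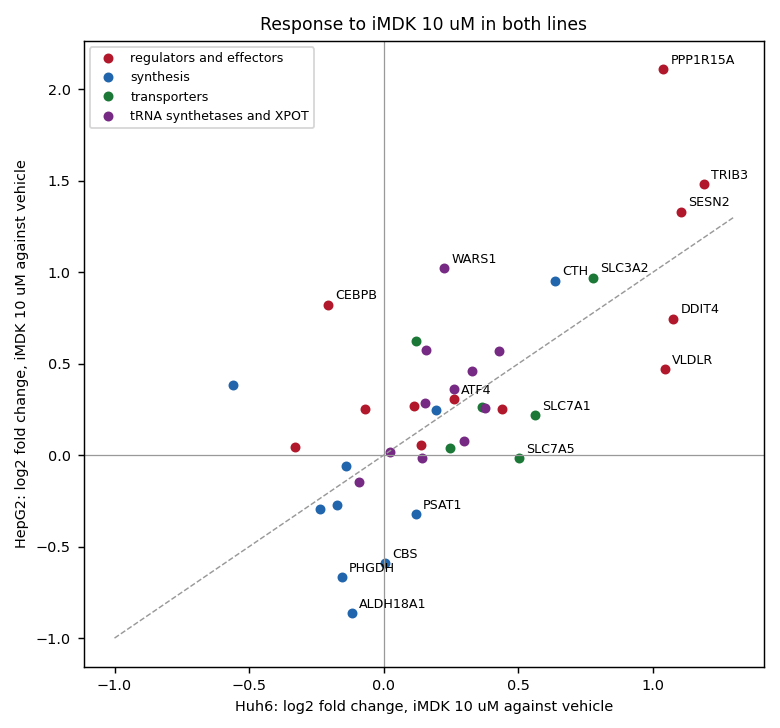
Log2 fold change at iMDK 10 µM against vehicle for members tested in both lines, HepG2 on the vertical and Huh6 on the horizontal axis. Points are genes coloured by role, and the dashed line marks equal change. PPP1R15A (2.11 in HepG2, 1.04 in Huh6), CEBPB (0.82, -0.21) and WARS1 (1.02, 0.22) lie above the line, and VLDLR (0.47, 1.05) and SLC7A5 (-0.02, 0.50) lie below it.

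The difference between the lines was tested directly as an interaction. With PKF118-310 at 0.2 µM the change was more positive in HepG2 for 30 of 41 tested members and more negative for 6, where 28.3% and 28.1% of all genes differed in these directions. CHAC1 is counted among the 30, but its HepG2 libraries lay near the counting limit. With iMDK at 5 µM 18 members were more positive and 7 more negative in HepG2, where 15.6% and 17% of all genes were. At 10 µM the members were 16 and 12 and the shares of all genes 21% and 20.7%. ALDH18A1 was more negative in HepG2 in all 3 interactions, and PPP1R15A more positive. The 3 interactions share the vehicle libraries of each line, so they are not independent of each other.

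Other genes of the pathway, listed apart from the members, gave these counts. Of 16 tested further ATF4 targets and partners in Huh6, 11 rose and 2 fell with PKF118-310 at 0.4 µM, and 10 rose and 3 fell with iMDK at 10 µM. Of 15 tested in HepG2, 10 rose and 3 fell with PKF118-310 at 0.2 µM, and 10 rose and 4 fell with iMDK at 10 µM. Over all genes 28.9% rose and 27.9% fell in Huh6 with PKF118-310, and 26% and 26.1% with iMDK. In HepG2 these shares were 35.9% and 36.1% with PKF118-310, and 29.9% and 29% with iMDK. ATF3, a stress-induced partner and antagonist of ATF4, averaged 202 CPM in Huh6 at PKF118-310 0.4 µM and 24.5 CPM in vehicle, a log2 fold change of 3.05. SLC7A11, the cystine importer, averaged 112 CPM in HepG2 at PKF118-310 0.2 µM and 10.9 CPM in vehicle, a 10.3-fold rise. GPT2, an alanine aminotransferase, went the other way there, with 258 to 272 CPM in treated cells and 532 to 561 CPM in vehicle. ERO1A, a thiol oxidase, had 151 to 154 CPM in treated cells and 203 to 205 CPM in vehicle. SQSTM1, an autophagy receptor, rose by 2.38 in HepG2 and 2.33 in Huh6 at iMDK 10 µM.

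A further list held 10 cytosolic synthetases outside the members. In HepG2 at iMDK 10 µM 1 of them rose and 6 fell, where 29.9% of all genes rose and 29% fell. At PKF118-310 0.2 µM 4 rose and 3 fell, near the shares of all genes, 35.9% and 36.1%. QARS1, which charges glutamine tRNA, fell by 0.57 and 0.68 in these comparisons. In Huh6 7 rose and 2 fell at PKF118-310 0.4 µM, where 28.9% of all genes rose and 27.9% fell. The counts were the same at iMDK 10 µM, where 26% of all genes rose and 26.1% fell. The neighbouring unfolded protein response was followed by 15 chaperones and other ATF6 or XBP1 targets of the endoplasmic reticulum. For each comparison the shares of all genes are those given for the synthetases. In HepG2 2 rose and 12 fell at PKF118-310 0.2 µM, and PDIA4, a disulphide isomerase, fell by 1.88. In Huh6 4 rose and 10 fell at PKF118-310 0.4 µM, and none rose and 12 fell at iMDK 10 µM. HepG2 with iMDK differed, with 11 higher and 4 lower at 10 µM. There DNAJB9, a cochaperone of BiP, rose by 1.42 and HSPA5, which encodes BiP, by 0.64.

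In macrophage-like THP-1 cells the members were lower after co-culture. With untreated HepG2, 3 of 40 tested members were higher and 22 lower than in THP-1 alone, where 12% of 15500 genes were higher and 9.68% lower. The median log2 fold change was -0.37 over the members and -0.01 over all genes tested. With untreated Huh6, 0 were higher and 22 lower, where 1.32% of all genes were higher and 0.503% lower. That median was -0.42 over the members and 0.00 over all genes tested. Both comparisons share the 3 libraries of THP-1 alone. Only co-cultured cells are described as sorted, so sorting and co-culture cannot be told apart in these comparisons. At an unadjusted p under 0.05 the edgeR test with Huh6 had 1 member higher and 31 lower, where 11.1% of all genes passed in either direction. DESeq2 had no member higher at its adjusted threshold. Set against each other, the co-culture with HepG2 had 8 members higher and 1 lower than that with Huh6, where 9.13% of all genes were higher and 7.55% lower.

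The count with Huh6 depended on single libraries and was larger with the replicate block. It was 7 without replicate 1 of THP-1 alone, 8 without replicate 1 of the co-culture and 12 without replicate 3 of the co-culture, and 16 to 20 without any other library. The 7 members lower in each of these fits were TRIB3, CHAC1, CEBPG, SESN2, STC2, PSAT1 and SLC7A5. Tumour RNA was present in co-culture libraries. The summed level of the 18 hepatoblastoma markers was 2960 to 3567 CPM with HepG2, 133 to 334 CPM with Huh6 and 56.6 to 71.2 CPM in THP-1 alone, where 7 of the markers were at 0. From these markers the tumour share was estimated at 9.16 to 10.3% of reads with HepG2 and 0.361 to 1.66% with Huh6, as the median over 18 and 13 markers. Single markers gave 0.857 to 18.3% with HepG2 and 0.0246 to 5.03% with Huh6. Fewer tumour cells and less RNA per tumour cell cannot be told apart in such libraries. After subtraction of these shares 1 member was higher and 24 were lower with HepG2, and 12 were lower with Huh6. The 24 include ALDH18A1 and PYCR1, whose direction the subtraction turned. Over all genes 1514 were higher and 1943 lower with HepG2 after it, as against 1853 and 1501 before. With Huh6, 19 of all genes were higher and 33 lower, as against 205 and 78. Subtraction at the lowest share that any marker gave, an alternative chosen after seeing the data, left 2 members higher and 21 lower with HepG2 and 22 lower with Huh6. Over all genes it left 1805 higher and 1320 lower with HepG2, and 157 higher and 78 lower with Huh6. The summed level of the 14 macrophage markers was 15600 to 20800 CPM with HepG2, 15690 to 18590 CPM with Huh6 and 16480 to 18650 CPM in THP-1 alone.

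Among the regulators in THP-1, CHAC1 (chr15:40952962-40956519, plus strand) measured 14.8, 12.5 and 14.3 CPM with HepG2 and 19.6, 25 and 18.6 CPM with Huh6, against 41.9, 37.4 and 38.1 CPM alone. Neither co-culture overlapped THP-1 alone, and the log2 fold changes were -1.50 ± 0.12 with HepG2 (edgeR adjusted p = 1.22e-08) and -0.89 ± 0.12 with Huh6 (edgeR adjusted p = 0.000182). SESN2 had 61.9, 64.0 and 72.3 CPM with HepG2 and 60.8, 75.5 and 67.0 CPM with Huh6, against 121, 104 and 113 CPM alone, and fell by 0.77 and 0.73. TRIB3 had 72.2, 77.1 and 82.0 CPM with HepG2, 48.9, 47.7 and 37.8 CPM with Huh6 and 101, 85.6 and 84.3 CPM alone. It fell by 1.01 with Huh6 and was at -0.23 with HepG2, short of the threshold (edgeR adjusted p = 0.278). ATF4 fell by 0.37 with Huh6 and was at -0.18 with HepG2 (edgeR adjusted p = 0.176). CEBPB was higher with HepG2, by 0.35, and lost that call without replicate 3 of THP-1 alone. PPP1R15A, which rose in every tested tumour line comparison with vehicle, was at 0.16 with HepG2 and -0.03 with Huh6.

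Of the 6 tested transporters in THP-1, 4 were lower with HepG2 and 3 with Huh6, where 9.68% and 0.503% of all genes were. SLC7A5 measured 170, 163 and 179 CPM with HepG2 and 203, 216 and 182 CPM with Huh6, against 469, 354 and 365 CPM alone. Its log2 fold changes were -1.22 ± 0.13 (edgeR adjusted p = 4.86e-07) and -0.98 ± 0.13 (edgeR adjusted p = 0.000176). PSAT1 (chr9:78297143-78330093, plus strand) had 203, 192 and 252 CPM with HepG2 and 201, 240 and 213 CPM with Huh6, against 401, 356 and 363 CPM alone, and fell by 0.79 and 0.78. PHGDH fell by 0.50 and 0.56, and PSPH, the last step of serine synthesis, fell by 0.46 with HepG2 and was at -0.40 with Huh6 (edgeR adjusted p = 0.164). The PSPH call with HepG2 and the PHGDH call with Huh6 were each lost in a fit that left out 1 library. Of the 11 synthetase and export genes 9 were lower with HepG2 and 6 with Huh6, by 0.27 to 0.57 and 0.31 to 0.45 on the log2 scale. Each of the 6 calls with Huh6 was lost in a fit that left out 1 library.

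The proline genes stood apart with HepG2. PYCR1 (chr17:81932384-81942412, minus strand) had 24.3, 26.9 and 28.8 CPM with HepG2 and 13.5, 12.4 and 11 CPM alone, a log2 fold change of 1.11 (edgeR adjusted p = 0.000195). ALDH18A1 had 30.6, 32.8 and 35.9 CPM with HepG2 and 23.5, 26.8 and 27 CPM alone, a log2 fold change of 0.36 (edgeR adjusted p = 0.0238). HepG2 cells themselves held 430 to 454 CPM of ALDH18A1 and 260 to 280 CPM of PYCR1 in vehicle, and subtraction of the estimated shares turned the direction of both genes. For ALDH18A1 its own level allowed at most 7.48% tumour reads in co-culture replicate 1, below the 9.39% estimated there from the markers. For PYCR1 that limit was 9.7%, little above the estimate, so the subtraction left few of its counts in that library. At the lowest marker share ALDH18A1 was at 0.20 and no longer called. ALDH18A1 also lost its call without co-culture replicate 2 or 3 or without replicate 1 of THP-1 alone.

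**Figure D5:**
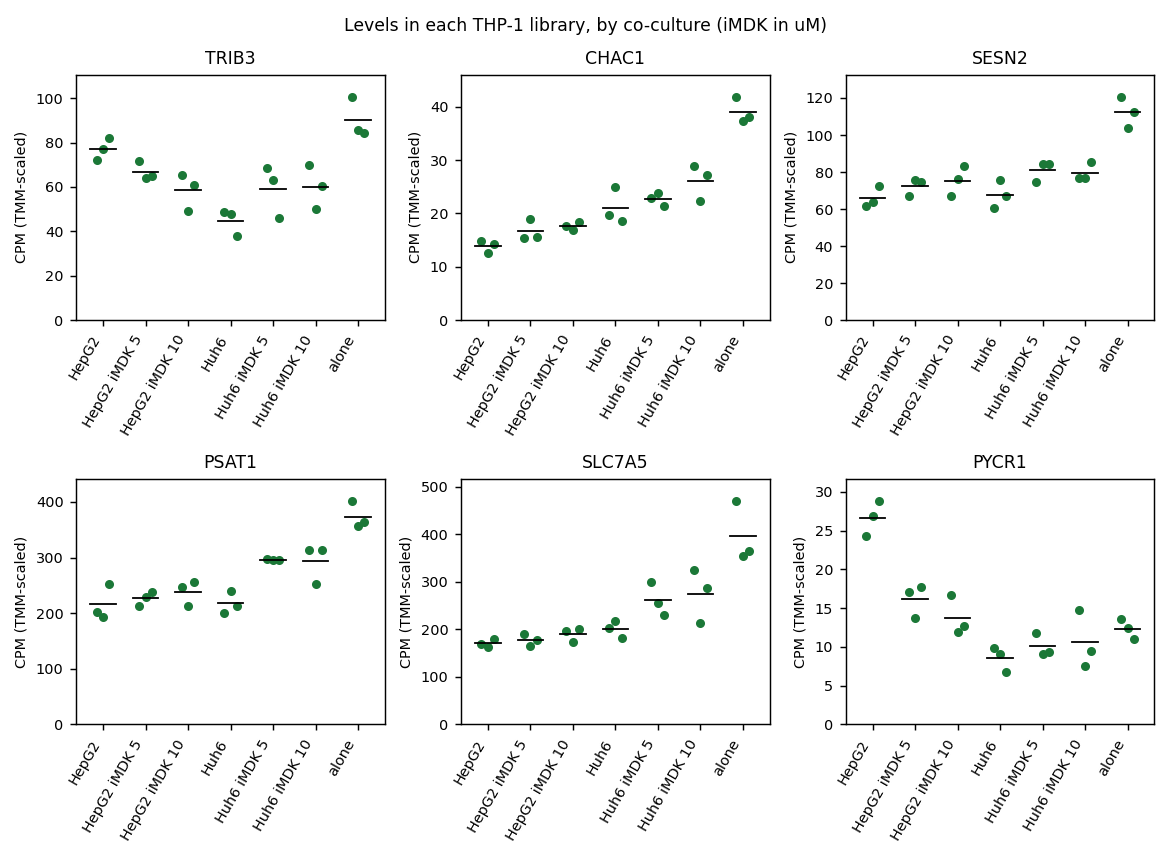
Level of 6 members in each THP-1 library, in CPM scaled by TMM on axes that start at 0, for co-cultures with HepG2 and Huh6 by iMDK dose (0, 5 and 10 µM) and for THP-1 alone at the right. Points are libraries and bars are means of 3. CHAC1, SESN2, PSAT1 and SLC7A5 lie below THP-1 alone in every co-culture library, and PYCR1 is highest with untreated HepG2 at 24.3 to 28.8 CPM.

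Pretreatment of the tumour cells with iMDK was compared with no pretreatment. With HepG2 at 5 µM no member was called, where 0.0903% of all genes were. At an unadjusted p under 0.05, edgeR had 1 member higher and 4 lower, where 9.7% of all genes passed in either direction. DESeq2 called 1 member, PYCR1, at its adjusted threshold, where it had 32 of all genes higher and 116 lower. Same-numbered libraries of these groups tended to deviate together, though the labels do not say that they were paired. With the replicate block PYCR1 was lower by 0.73 and called, where 193 of all genes were higher and 421 lower. With HepG2 at 10 µM 2 members were lower and 0 higher, where 2.7% of all genes were lower and 0.645% higher. These counts depended on the fit: 6 were lower and 4 higher with the replicate block, 4 lower and 1 higher with no low-count filter, and 1 lower and 4 higher after subtraction of tumour reads. Over all genes these fits had, in that order, 984 lower and 818 higher, 674 lower and 180 higher, and 292 lower and 644 higher. The main fit had 418 of all genes lower and 100 higher. PYCR1 had 16.6, 11.9 and 12.7 CPM at 10 µM and 24.3, 26.9 and 28.8 CPM with untreated HepG2, a log2 fold change of -0.95 (edgeR adjusted p = 0.00668). STC2, a secreted glycoprotein induced by ATF4, was at -0.43 and lost its call without replicate 2 or 3 of either group. The estimated tumour share was 1.66 to 4.34% at 10 µM and 9.16 to 10.3% with untreated HepG2, and the subtraction turned the direction of PYCR1.

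With Huh6 the edgeR test called no member at 5 or 10 µM, where 0.0129% and 0.0581% of all genes were called. DESeq2 called 1 member higher at each dose, PSAT1, where it had 2 and 3 of all genes higher. With the replicate block a few members were called higher at each dose, where 3 and 6 of all genes were. At an unadjusted p under 0.05 edgeR had 16 members higher and 1 lower at 5 µM and 15 higher and 0 lower at 10 µM, where 3.75% and 4.76% of all genes passed in either direction. The median log2 fold change over the members was 0.19 at 5 µM and 0.20 at 10 µM, and -0.00 over all genes tested at both. PSAT1 had 298, 295 and 296 CPM at 5 µM and 313, 252 and 314 CPM at 10 µM, against 201, 240 and 213 CPM with untreated Huh6. Neither dose overlapped untreated Huh6, but the change did not pass the adjusted threshold. The estimated tumour share was 0.158 to 0.211% at 5 µM, 0.143 to 0.187% at 10 µM and 0.361 to 1.66% with untreated Huh6.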

How the data were processed

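The authors deposited raw read counts per gene, in one table for the tumour lines and one for THP-1, and no per-sample column was left unused (0 columns). Per the submitters' processing notes, STAR 2.7.3a, SAMtools 1.16.1, featureCounts and edgeR 3.36 were used on GRCh38; the annotation release, strand setting and treatment of multimapped reads were not given in the sources used here. Libraries were directional, per the labels' protocols.

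Tests on these counts used filterByExpr by group, TMM scaling and the two-sided quasi-likelihood F test, 1 model per line, 21 comparisons (edgeR 4.0.16 with limma 3.58.1 under R 4.3.3), with the single HepG2 library outside the fits. CPM are TMM-scaled. The SE is the log2 fold change divided by the square root of F. Code was tested on simulated data. DESeq2 1.42.0, median-of-ratios scaling, no filter, a replicate block, left-out libraries and subtraction of tumour reads were alternatives. The tumour share is the median excess over markers of at least 100 CPM, relative to the tumour line group of the same dose, whose 48 h treatment differs from that in co-culture. Tests assume independent molecules, which reads without identifiers are not.

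The members and lists were chosen with earlier results of these data known. The naming rule allows all members and up to 4 called genes per further list and comparison. Those lists were eIF2 kinases and eIF2B, other ATF4 targets, other synthetases and chaperones.

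In THP-1, same-numbered libraries of different groups tended to deviate together. Their mean correlation was 0.173, against -0.0862 for other numbers, and the lowest was -0.0159. For HepG2 at iMDK 5 µM and untreated the correlations were 0.386, 0.143 and 0.381. The main tests did not use replicate numbers, and the replicate block was an alternative. Among 51 replicate pairs none were identical or within sampling noise.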

Additional observations from a re-analysis of the deposited data

Results flagged for a closer look

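The change differed between the lines, by an interaction test in edgeR, for many members. With PKF118-310 at 0.2 µM 30 of 41 tested members changed more positively and 6 more negatively in HepG2 than in Huh6. The shares of all genes were 28.3% and 28.1%. The log2 difference (HepG2 minus Huh6) was 3.27 for PPP1R15A, 2.22 for SESN2 and 1.65 for DDIT4 at one end, and -1.66 for ALDH18A1, -0.72 for PSPH and -0.35 for PHGDH at the other.

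With iMDK at 5 µM 18 of 40 tested members changed more positively and 7 more negatively in HepG2, where 15.6% and 17% of all genes did. The log2 difference was 1.14 for PPP1R15A, 0.75 for CEBPB, 0.63 for SLC6A9, -0.71 for VLDLR, -0.66 for ALDH18A1 and -0.46 for PHGDH. At 10 µM 16 of 41 tested members changed more positively and 12 more negatively, where 21% and 20.7% of all genes did. The log2 difference there was 1.11 for PPP1R15A, 1.06 for CEBPB and 0.83 for WARS1. It was -0.71 for ALDH18A1, -0.56 for CBS, -0.54 for VLDLR and -0.41 for PSAT1, which was called in opposite directions in the lines, as was CEBPB.

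In THP-1, co-culture with HepG2 and with Huh6 was compared directly, and 8 of 40 tested members were higher with HepG2 and 1 was lower. Over all genes 9.13% were higher and 7.55% lower. The log2 fold change was 1.63 for PYCR1, 1.43 for CTH, 1.34 for NUPR1, 0.78 for TRIB3, 0.77 for STC2, 0.75 for SLC6A9, 0.45 for VLDLR and 0.41 for CEBPB. CHAC1 was lower with HepG2, at -0.60. SLC6A9 lost its call whichever of the 6 libraries was left out, NUPR1 without replicate 1 with HepG2 or any replicate with Huh6, and VLDLR without replicate 3 with HepG2 or replicate 1 with Huh6. The higher count was 5 without replicate 1 with Huh6, and the lower count was 3 without replicate 3 with HepG2 and 2 without replicate 1 with Huh6. After subtraction of tumour reads PYCR1 turned to -2.12, and the lower count was 6, as against 7 with the replicate block. Over all genes the lower counts in these fits were 1724 and 2346, as against 1171 in the main fit. Tumour reads were estimated at 9.16 to 10.3% with HepG2 and 0.361 to 1.66% with Huh6.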

How the results depend on the processing

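Median-of-ratios scaling moved no count of called members by over 1.5 times. With no low-count filter, THP-1 with HepG2 against Huh6 had 3 lower. THP-1 with HepG2 had 1 lower at iMDK 5 µM, and 1 higher and 4 lower at 10 µM. THP-1 with Huh6 had 4 higher at 5 µM and 5 higher at 10 µM. Over all genes that fit had 1062 lower with HepG2 against Huh6, and 247 lower at 5 µM with HepG2. It had 180 higher and 674 lower at 10 µM with HepG2, and 8 and 11 higher with Huh6. With DESeq2 these counts were 1 lower with HepG2 at 5 µM, and 1 higher with Huh6 at each dose. Over all genes DESeq2 had 116 lower with HepG2 at 5 µM, and 2 and 3 higher with Huh6. With tumour reads subtracted, 1 was higher with HepG2 against alone, 12 lower with Huh6 against alone and 6 lower with HepG2 against Huh6. With HepG2, 1 was higher and 2 lower at 5 µM, and 4 higher and 1 lower at 10 µM. Over all genes the subtraction gave 1514 higher with HepG2 against alone, 33 lower with Huh6 against alone and 1724 lower with HepG2 against Huh6. With HepG2 it gave 281 higher and 125 lower at 5 µM, and 644 higher and 292 lower at 10 µM. ALDH18A1 turned to -11.57 with HepG2 against alone, -11.78 against Huh6, 10.57 at 5 µM and 11.19 at 10 µM, and PYCR1 to -2.73, -2.12 and 1.91 (at 10 µM). For ALDH18A1 the estimated tumour reads exceeded the count.

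With the replicate block, HepG2 against Huh6 had 7 lower. THP-1 with HepG2 had 1 lower at 5 µM and, at 10 µM, 4 higher and 6 lower. THP-1 with Huh6 had 2 higher at 5 µM and 3 higher at 10 µM, and 31 lower against alone. Over all genes the block gave 2346 lower with HepG2 against Huh6 and 294 lower with Huh6 against alone. With HepG2, 421 were lower at 5 µM, and 818 higher and 984 lower at 10 µM. With Huh6, 3 and 6 were higher at these doses. In THP-1, 19 of 21 libraries lay closest to their own number, a hint from the data. In HepG2 and Huh6 same-numbered libraries had mean correlations of -0.00 and -0.01, and the block moved no count by over 1.5 times.

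With single libraries left out, the members higher in Huh6 at PKF118-310 0.2 µM were 1 to 2, and those lower 0 to 1 at 0.3 µM and 1 to 3 at 0.4 µM. For Huh6 iMDK 10 against 5 µM 1 to 2 were lower. In THP-1, 7 to 20 were lower with Huh6 against alone, 5 to 7 higher and 1 to 3 lower with HepG2 against Huh6, and 1 to 2 lower with HepG2 at iMDK 10 µM. Where no cause is named, the cause was not tested. Low counts limit what can be said of DDIT3, ALDH1L2, NUPR1 and, in HepG2, CHAC1, and the cause of these low counts was not tested.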

Other observations

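Kinases and factors upstream of ATF4 were listed apart from the members. Of 13 tested genes for eIF2 kinases, eIF2 and eIF2B, 3 rose and 5 fell in HepG2 with PKF118-310 at 0.2 µM, and 4 rose and 5 fell with iMDK at 10 µM. Over all genes 35.9% rose and 36.1% fell in the first of these and 29.9% and 29% in the second. In Huh6 7 rose and 3 fell with PKF118-310 at 0.4 µM, and 4 rose and 2 fell with iMDK at 10 µM, where 28.9% and 27.9%, and 26% and 26.1%, of all genes did. EIF2AK2, the double-stranded RNA kinase PKR, averaged 178 CPM in HepG2 at iMDK 10 µM and 92.9 CPM in vehicle, a log2 fold change of 0.94. EIF2AK3, the endoplasmic reticulum kinase PERK, rose by 0.35 there and fell by 0.45 with PKF118-310 at 0.2 µM. EIF2S1, the eIF2 subunit that the kinases phosphorylate, rose by 0.73 in HepG2 with PKF118-310 at 0.2 µM and by 0.65 in Huh6 at 0.4 µM. In THP-1, 1 of the 13 was higher and 3 were lower with HepG2, where 12% of all genes were higher and 9.68% lower. With Huh6 0 were called in edgeR, where 1.32% of all genes were higher and 0.503% lower. These are RNA levels, and phosphorylation was not measured.

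In THP-1 with HepG2 the 10 synthetases outside the member list also moved, with 2 higher and 7 lower, and IARS1, which charges isoleucine tRNA, fell by 0.60. Over all genes 12% were higher and 9.68% lower with HepG2, and 1.32% and 0.503% with Huh6. Of the 15 chaperones 1 was higher and 1 lower with HepG2. With Huh6 0 of 10 synthetases and 0 of 15 chaperones were called in edgeR at the adjusted threshold. Of 15 tested further ATF4 targets 5 were higher and 3 lower with HepG2. ERO1A, a thiol oxidase, averaged 79.4 CPM with HepG2 and 36.2 CPM alone, a log2 fold change of 1.14. GPT2, an alanine aminotransferase, was the only one of the 15 called with Huh6, and it fell by 0.75.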
